A study of Macaca mulatta with 136 samples.

Results

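The foveal neural retina was compared with the RPE/choroid lying directly beneath it, the retinal pigment epithelium together with the choroid. The comparison uses 8 of the 32 libraries of the series, 4 of neural retina and 4 of RPE/choroid from the fovea, chosen by their labelled tissue and location. Each pair of libraries came from the same eye. The eyes were the right and left eyes of 2 adult rhesus macaques (Macaca mulatta), RM03 and RM04, for which the labels name no treatment or genetic change. Punches of 2 mm were taken postmortem at the fovea, the perimacula, a nasal location and the periphery, and the retina was separated from the RPE/choroid by dissection. The 8 foveal libraries hold 40 of the 136 deposited sets of lane values, and their lane sums ranged from 48224379 to 58821370 estimated counts in retina and from 45212889 to 57232261 in RPE/choroid. Fellow eyes share an animal, so the p-values below measure the spread between these eyes and not that of a population of animals.

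The neural retina holds photoreceptors, the interneurons that carry their signals and the ganglion cells whose axons form the optic nerve. The fovea is its cone-rich centre, where inner neurons are displaced sideways and retinal capillaries are missing. The RPE is a single pigmented cell layer that regenerates the chromophore of the visual pigments and engulfs shed outer segments. The choroid below it is a vascular bed with endothelium, smooth muscle, fibroblasts, melanocytes and immune cells. A bulk punch mixes all of these, so fewer cells of a type and less RNA per cell cannot be told apart.

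The RPE/choroid of 1 eye held more photoreceptor transcripts than that of the other 3, though not past the outlier limit described at the end. The percentages in this paragraph are medians over the list members called higher in their own tissue in the comparison below. The RPE/choroid of the RM04 right eye carried photoreceptor transcripts at a median of 11.5% of their retinal level for 11 rod genes and 5.42% for 12 cone genes, against 0.66% to 2.0% and 0.84% to 1.64% in the other 3 eyes. Of those 3, the RM04 left eye was highest in both lists, at 2.0% and 1.64%. Other retina lists stood higher in the RPE/choroid of the RM04 right eye too. Ribbon synapse genes had a median of 9.51% (3.45% to 4.76% in the other 3 eyes), Mueller glia genes 13.9% (8.31% to 9.34%), general neuronal genes 6.35% (2.74% to 3.64%), ganglion cell genes 1.71% (0.25% to 0.77%) and horizontal cell genes 1.56% (0.25% to 0.87%). The exceptions were amacrine genes, at 0.94% against 0.76% to 1.29%, and bipolar genes, at 3.85% against 6.06% in the RM04 left eye. In the reverse direction, melanin genes were found in the 4 retina libraries at 0.75% to 1.10% of their RPE/choroid level and those of the RPE visual cycle at 1.6% to 2.30%. Because these genes were chosen by their call in the same libraries, low medians are in part built in and are no independent check of the labels. Rhodopsin, the cone opsins and some other defining genes were not analysed here. The part that tissue carried over in the dissection plays in any difference was not tested. Photoreceptor values are given with and without the RPE/choroid of the RM04 right eye.

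**Figure D1:**
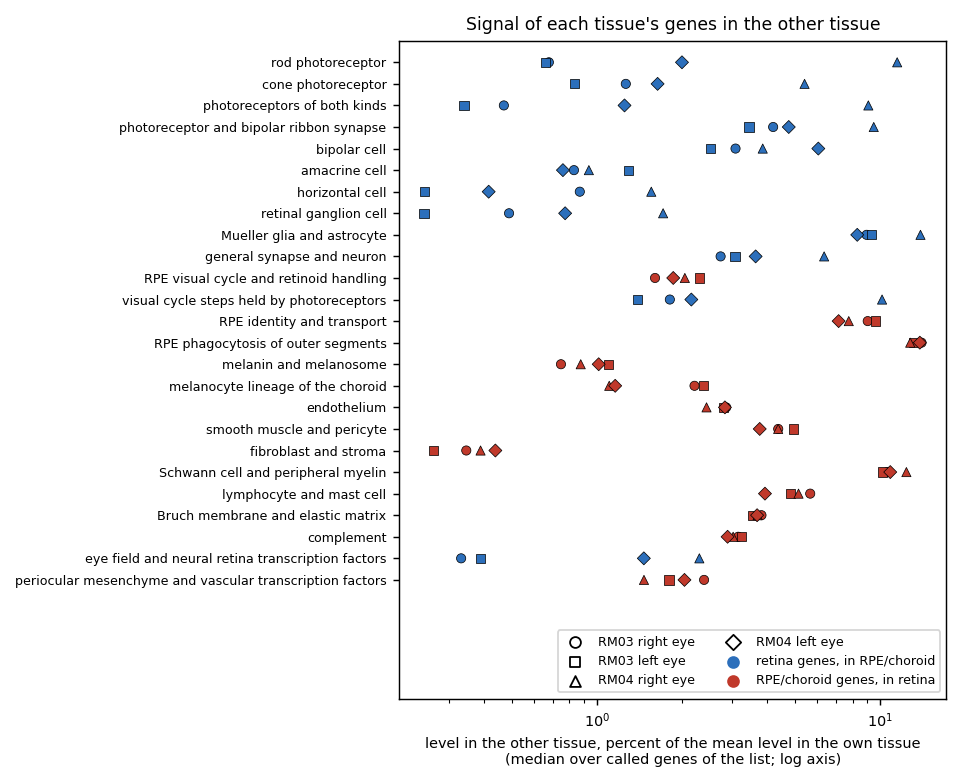
Level of each tissue's genes in the other tissue (x axis, log scale, percent of the mean level in their own tissue) for lists named for cells, structures or factors of 1 tissue (y axis), as the median over the genes called higher in their own tissue. Marker shapes are the 4 eyes, blue marks retina genes in RPE/choroid and red marks RPE/choroid genes in retina. The RM04 right eye has the highest value of the 4 eyes for the rod list at 11.5% and the Mueller glia list at 13.9%, but not for the amacrine list at 0.94%.

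Of 15435 genes tested at the fovea, 11867 (76.9%) differed between the tissues at a Benjamini-Hochberg adjusted p under 0.05. Of these, 6086 (39.4% of those tested) were higher in retina and 5781 (37.5%) higher in RPE/choroid. The 4 retina and the 4 RPE/choroid libraries did not overlap for 10936 genes (70.9%), and 7270 genes (47.1%) were called with a difference over 2-fold. The median log2 fold change over all genes tested was 0.05, where a positive value means higher in retina throughout. Differences over 8 on the log2 scale were called for 73 genes higher in retina and 121 higher in RPE/choroid. At the other end, the 95% interval of the difference lay within 2-fold in either direction for 5810 genes (37.6%). With so large a share called, a called gene in a list is not unusual in itself, and each list is described by its direction, its median and its exceptions. Many lists are named for cells or structures of 1 of the tissues, while others were given no side in advance. The directions of the former can be set beside the labels, but the lists were chosen with earlier results of these data known.

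**Figure D2:**
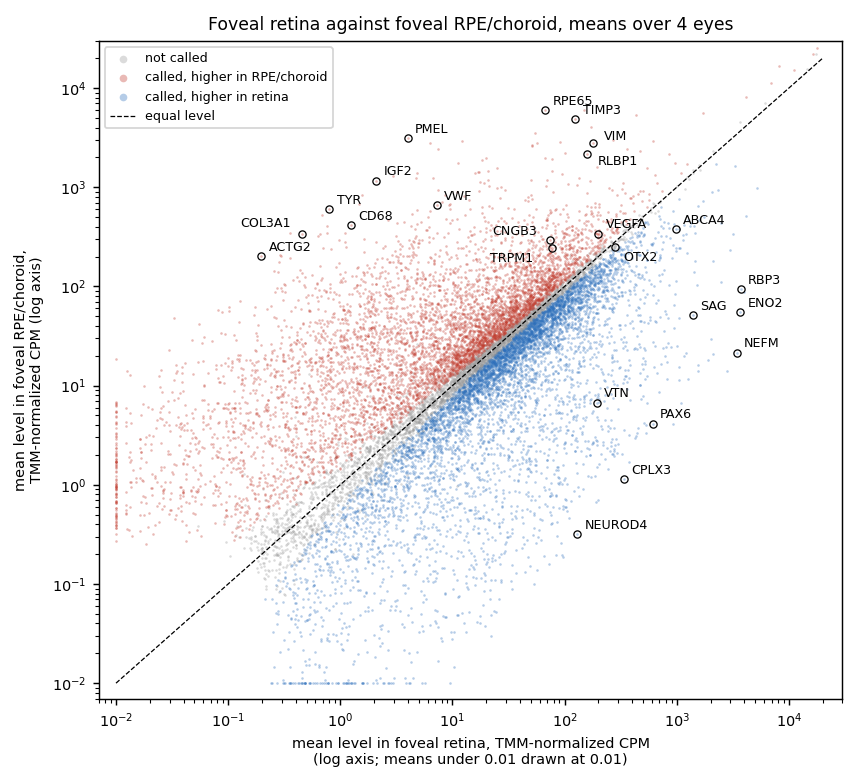
Mean level of each tested gene over 4 eyes in foveal retina (x axis) and foveal RPE/choroid (y axis), both in TMM-normalized CPM on log axes, with means under 0.01 drawn at 0.01. Colours give the call, the dashed line marks equal levels and named genes are circled. PMEL, TYR and COL3A1 lie far above the line and NEUROD4, CPLX3 and PAX6 far below it, while OTX2 lies on it.

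Among genes with at least 100 CPM in the higher tissue, the largest differences toward RPE/choroid belonged to contractile, stromal and pigment genes. ACTG2, a smooth muscle actin, had 202, 238, 202 and 168 CPM in RPE/choroid of the RM03 right, RM03 left, RM04 right and RM04 left eyes, the order kept below. In retina it had 0.0403, 0.178, 0.279 and 0.295 CPM, so that the difference was -9.94 ± 0.35 (log2, SE) with an adjusted p of 8.1e-08. CPXM1, PMEL, OGN, TYR and COL3A1 followed, between -9.87 and -9.54. SCGB3A2, the insulin-like growth factor IGF2 and the smooth muscle calponin CNN1 were between -9.40 and -9.05, and 1 of the entries named IGHG4, an immunoglobulin constant region whose reads may be split among near-identical genes, was at -9.49. Toward retina, NEUROD4, a proneural transcription factor, led with 138, 126, 127 and 126 CPM against 0.296, 0.129, 0.391 and 0.455 CPM, a difference of 8.68 ± 0.25 with an adjusted p of 3.4e-08. Next came CPLX3 at 8.26, the RNA-binding protein ELAVL2 at 8.23, RGS8 at 8.20 and the potassium channel KCNC2 at 8.14. The vesicular glutamate transporter SLC17A6, the neurofilaments NEFL and NEFM, DPP10 and the calcium sensor HPCA made up the rest of the 10, between 7.98 and 7.55. None of these 20 genes had a retina library that overlapped an RPE/choroid library. The same held for 70.9% of all genes tested, and choosing genes by the largest differences all but ensures it.

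Photoreceptor genes were higher in retina with 1 exception. All 11 rod genes tested, 12 of 13 cone genes and all 19 genes of both photoreceptor kinds were called toward retina, with list medians of 5.32, 5.97 and 6.19 against 0.05 over all genes. Rod arrestin, SAG, had 1202, 1458, 1413 and 1551 CPM in retina and 8.09, 7.23, 162 and 28.1 CPM in RPE/choroid. Its difference was 5.68 ± 0.96 with an adjusted p of 0.00075, and 6.68 without the RPE/choroid of the RM04 right eye. The interphotoreceptor retinoid carrier RBP3 differed by 6.56 ± 1.28 (adjusted p 0.0017), or 8.06 without that library, and had 335 CPM there against 7.02 to 25.7 CPM in the other 3. The rod phosphodiesterase subunit PDE6A differed by 6.08 ± 1.08, or 7.27 without that library, and recoverin, RCVRN, by 5.28, or 6.35. Cone arrestin, ARR3, differed by 6.31 ± 0.98 (adjusted p 0.00044) and by 7.30 without it. The list medians without that library were 6.55 for rod genes, 6.50 for cone genes and 7.22 for genes of both kinds. ABCA4, the outer segment flippase that is also made in RPE, showed the smallest difference of the 19 genes of both kinds, 1.45 ± 0.16 (adjusted p 6.2e-05), from 928 to 1028 CPM in retina and 263 to 508 CPM in RPE/choroid.

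CNGB3, the beta subunit of the cone cyclic nucleotide-gated channel, was the exception. It had 60.5, 55.6, 96.9 and 82.5 CPM in retina and 215, 162, 417 and 376 CPM in RPE/choroid. Every RPE/choroid library was above every retina library, and the difference was -1.92 ± 0.14 with an adjusted p of 3.8e-06. It was -1.87 without the RPE/choroid of the RM04 right eye. A similar exception stood among bipolar cell genes. TRPM1, the transduction channel of ON bipolar cells, which is also known from melanocytes, had 76.6, 71.9, 86.6 and 72.8 CPM in retina against 226, 244, 268 and 245 CPM in RPE/choroid. Its difference was -1.68 ± 0.08 (adjusted p 4.1e-07), in a list where 13 of 15 genes tested were higher in retina with a median of 3.13.

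Genes of inner retinal neurons were mostly higher in retina. The ganglion cell list was called toward retina for 15 of 17 genes with a median of 6.88, the highest of the lists. The neurofilament NEFM had 3677, 3601, 3046 and 3445 CPM in retina and 11.8, 8.47, 47.8 and 17.7 CPM in RPE/choroid, a difference of 7.55 ± 0.57 (adjusted p 5.4e-06). For horizontal cells 6 of 7 genes were higher in retina with a median of 6.18, among them the calcium buffer CALB1 at 7.45 ± 0.60 and the transcription factor ISL1 at 8.56 ± 0.17. All 15 ribbon synapse genes were higher in retina with a median of 4.34, including the complexin CPLX3 and the presynaptic calcium channel CACNA1F at 3.22 ± 0.25. Of 18 general neuronal genes, 17 were higher in retina with a median of 4.52, such as the synaptic SNARE protein SNAP25 at 6.86 ± 0.42, while STX1A was not called at -0.15 ± 0.12. Bipolar genes included the kainate receptor GRIK1 at 7.26 ± 0.31 and CABP5 at 7.05 ± 0.37. Amacrine genes were less uniform, with 9 of 15 higher in retina, 1 higher in RPE/choroid and 5 not called. The GABA-synthesizing enzyme GAD1 differed by 8.54 ± 0.25 (adjusted p 4e-08), while the glycine transporter SLC6A9 was higher in RPE/choroid at -0.42 ± 0.07 (adjusted p 0.001), with 104 to 144 CPM in retina and 139 to 199 CPM in RPE/choroid that overlapped, a call that was lost in the fit of all 32 libraries (adjusted p 0.18).

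Members of these neuronal lists that were higher in RPE/choroid included TMOD1, an actin pointed-end capping protein used as a horizontal cell marker, at -4.64 ± 0.14. SPP1, osteopontin, had 99.6, 88.8, 96.1 and 96.3 CPM in retina and 875, 923, 1870 and 1793 CPM in RPE/choroid, a difference of -3.75 ± 0.21 (adjusted p 9.8e-07). RBPMS2, an RNA-binding protein of ganglion cells and smooth muscle, differed by -2.15 ± 0.11. None of the 3 overlapped between the tissues.

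Glial genes fell on both sides. Of 17 Mueller glia and astrocyte genes tested, 11 were higher in retina and 6 in RPE/choroid, with a median of 2.11. The glutamate transporter SLC1A3 was higher in retina at 4.22 ± 0.36 and the Wnt inhibitor WIF1 at 5.15 ± 0.50. The intermediate filament VIM had 149, 149, 195 and 226 CPM in retina and 2530, 2952, 2771 and 2853 CPM in RPE/choroid, a difference of -3.97 ± 0.13 (adjusted p 6.1e-08). RLBP1, the retinaldehyde carrier shared by Mueller glia and RPE, had 161, 194, 135 and 140 CPM in retina and 1533, 1201, 2952 and 2967 CPM in RPE/choroid, a difference of -3.69 ± 0.32. HES1, a Notch target, was also higher in RPE/choroid at -2.48 ± 0.08.

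**Figure D3:**
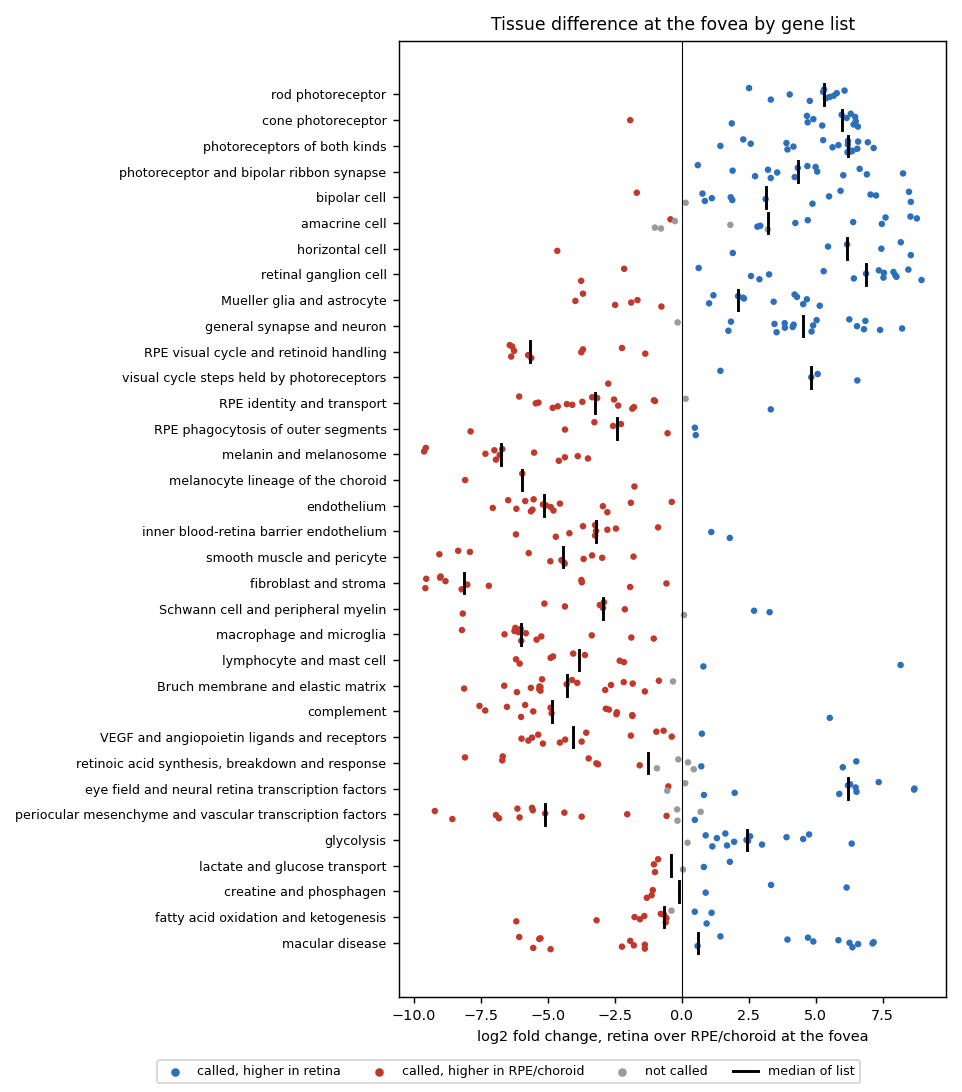
Difference between the tissues (x axis, log2 fold change of retina over RPE/choroid) for each tested member of each list other than the study's genes by location (y axis). Points are genes coloured by call and black bars are list medians. Neuronal lists lie to the right and RPE, vascular and stromal lists to the left, with the ganglion cell median at 6.88, the fibroblast median at -8.11 and single members on the opposite side in several lists.

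The genes of the RPE were higher in RPE/choroid almost throughout. All 10 genes of the RPE visual cycle were called in that direction with a median of -5.67, and all 12 melanin and melanosome genes with a median of -6.75. RPE65, the isomerase that regenerates the chromophore, had 52.4, 101, 63.1 and 52.1 CPM in retina and 4906, 3208, 8026 and 7906 CPM in RPE/choroid, a difference of -6.42 ± 0.42 (adjusted p 2.1e-06). The retinol carrier TTR differed by -5.62 ± 0.35 and the opsin RGR by -6.26 ± 0.33. Tyrosinase, TYR, was nearly level across eyes in RPE/choroid at 604 ± 19.1 CPM (SD, n = 4) and stood at 0.585 to 1.23 CPM in retina, a difference of -9.55 ± 0.26. The melanosome matrix protein PMEL had 3765, 4147, 2213 and 2369 CPM in RPE/choroid and 2.48 to 7.07 CPM in retina, and the melanosome transport adaptor MLPH differed by -6.93 ± 0.11. Of 5 genes for the steps of the cycle held by photoreceptors, 4 were higher in retina with a median of 4.84, among them RDH12 at 4.84 ± 0.59, except for the retinal reductase DHRS3 at -2.74 ± 0.25.

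Of 18 RPE identity and transport genes tested, 16 were higher in RPE/choroid with a median of -3.25. The chloride channel BEST1 differed by -6.07 ± 0.21 and the pigment cell transcription factor MITF by -3.34 ± 0.20. LIN7A, a polarity scaffold, was higher in retina at 3.33 ± 0.19. OTX2, a transcription factor of photoreceptors, bipolar cells and RPE, had 301, 317, 267 and 232 CPM in retina and 299, 191, 219 and 292 CPM in RPE/choroid. The tissues overlapped and it was not called, with a difference of 0.15 ± 0.17 (adjusted p 0.43). In the list for the uptake of outer segments 6 of 8 genes were higher in RPE/choroid with a median of -2.41, among them the integrin subunit ITGB5 at -2.56 ± 0.12. The bridging ligand GAS6 (0.49 ± 0.08, adjusted p 0.00066) and the motor MYO7A (0.53 ± 0.06, adjusted p 6.4e-05) were the 2 higher in retina.

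The vascular and stromal genes of the choroid were called toward RPE/choroid. This held for all 16 endothelial genes with a median of -5.13, all 12 smooth muscle and pericyte genes with a median of -4.44 and all 12 fibroblast genes with a median of -8.11, the lowest of the lists. Endoglin, ENG, differed by -6.17 ± 0.15 and von Willebrand factor, VWF, by -6.48 ± 0.19. Smooth muscle myosin MYH11 had 2715, 3929, 2862 and 2211 CPM in RPE/choroid against 10.3 to 14.5 CPM in retina, a difference of -7.91 ± 0.26, and ACTA2 differed by -8.35 ± 0.17. COL3A1, a fibrillar collagen, had 290, 322, 411 and 322 CPM in RPE/choroid and 0.443, 0.302, 0.361 and 0.705 CPM in retina. The collagen-binding proteoglycan DCN differed by -8.82 ± 0.33. All 3 melanocyte lineage genes tested were higher in RPE/choroid, with the endothelin receptor EDNRB at -5.95 ± 0.23 and the transcription factor PAX3 at -8.09 ± 0.33.

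Genes of the angiogenic pathway were mostly in RPE/choroid, and its central members differed least. Of 14 ligands and receptors, 13 were higher there with a median of -4.04. The co-receptor NRP1 differed by -5.98 ± 0.16, ANGPT1 by -5.72 ± 0.18, its receptor TEK by -4.55 ± 0.13 and FLT1 by -1.90 ± 0.19. VEGFA, the main growth factor for endothelium, had 250, 183, 180 and 187 CPM in retina and 230, 211, 456 and 463 CPM in RPE/choroid. The tissues overlapped in RM03 and were apart in RM04. Its difference was -0.68 ± 0.26 (adjusted p 0.042), but -0.03 in RM03 alone and -1.34 in RM04 alone, and the animals differed (adjusted p 0.011). KDR, its principal receptor, had 268, 240, 270 and 286 CPM in retina and 247, 289, 456 and 428 CPM in RPE/choroid, a difference of -0.37 ± 0.13 (adjusted p 0.032) that was called in 12 of 26 alternative settings. VEGFA was called in 15 of the 26, and with the eye as a replicate block the adjusted p was 0.079 for VEGFA and 0.081 for KDR. VEGFD, at under 2 CPM in every library, was the member higher in retina at 0.75 ± 0.27, called in 14 of 26.

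**Figure D4:**
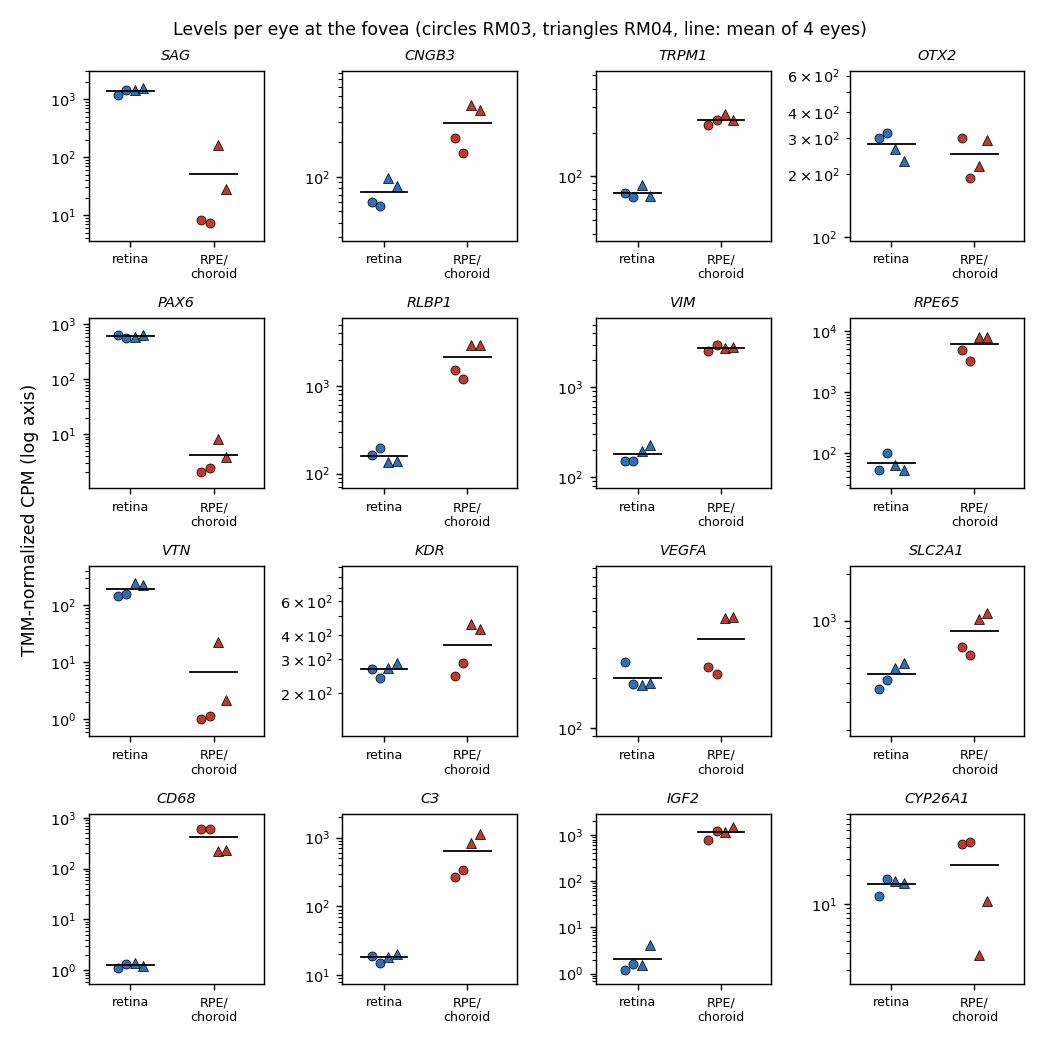
Level of 16 genes in foveal retina (blue) and foveal RPE/choroid (red) of each eye, in TMM-normalized CPM on log axes that differ between panels. Circles are RM03, triangles RM04 and lines the means of 4 eyes. VIM and TRPM1 are separate and tight in both tissues, OTX2 overlaps, and VEGFA is separate in RM04 with 456 and 463 CPM in RPE/choroid but not in RM03.

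Of 12 genes tied to the endothelium of the inner blood-retina barrier, 10 were higher in RPE/choroid with a median of -3.22. The Wnt co-receptor LRP5 differed by -4.70 ± 0.22 and the glucose transporter SLC2A1, which RPE also carries, had 365, 420, 498 and 532 CPM in retina against 679, 600, 1024 and 1120 CPM in RPE/choroid, a difference of -0.88 ± 0.10. The ligand NDP, made by Mueller glia, was higher in retina at 1.80 ± 0.15 with 6.55 to 7.35 CPM there. The amino acid transporter SLC38A5 was higher in retina at 1.11 ± 0.29.

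Immune and matrix genes were also on the RPE/choroid side. All 13 macrophage and microglia genes were higher there with a median of -5.99, such as the antigen presentation chaperone CD74 at -6.61 ± 0.13 and the complement component C1QB at -6.21 ± 0.36. CD68, a lysosomal protein of macrophages, had 602 and 606 CPM in RPE/choroid of RM03 and 220 and 231 CPM in that of RM04, against 1.09 to 1.36 CPM in retina. Of 10 lymphocyte and mast cell genes tested, 8 were higher in RPE/choroid with a median of -3.83, such as the T cell co-receptor CD8A at -4.89 ± 0.65, and 2 genes of mast cells were higher in retina. These were MS4A2 (0.81 ± 0.32, called in 10 of 26 alternatives) and HDC, at under 2 CPM in retina and 0 in all 4 RPE/choroid libraries. Of 15 complement genes, 14 were higher in RPE/choroid with a median of -4.86, including SERPING1 at -6.0 ± 0.11 and C3 at -4.90 ± 0.36. Vitronectin, VTN, an inhibitor of the terminal pathway, was the exception, with 142, 160, 244 and 226 CPM in retina and 1.01, 1.12, 22.6 and 2.21 CPM in RPE/choroid. Its difference was 5.53 ± 0.89 (adjusted p 0.00056), or 6.95 without the RPE/choroid of the RM04 right eye, the library where it was highest. Of 19 genes of Bruch membrane and elastic matrix, 18 were higher in RPE/choroid with a median of -4.29. TIMP3, a metalloproteinase inhibitor of that membrane, differed by -5.27 ± 0.08, EFEMP1 by -5.32 ± 0.17 and COL4A1 by -5.21 ± 0.11, while COL4A4 was not called (-0.32 ± 0.27).

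Schwann cell genes had exceptions too. Of 10 tested, 7 were higher in RPE/choroid with a list median of -2.92, such as the cadherin CDH19 at -8.17 ± 0.24. DRP2 (3.28 ± 0.34) and PMP2 (2.70 ± 0.60) were higher in retina, and the calcium-binding protein S100B was not called at 0.09 ± 0.10. PMP2, a fatty acid binding protein of myelin, had 49.9 and 37.0 CPM in retina of RM03 and 3.14 and 3.58 CPM in that of RM04.

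Transcription factors were tested in 2 lists. Of 13 eye field and neural retina factors tested, 10 were higher in retina with a median of 6.21. PAX6 had 646, 568, 599 and 633 CPM in retina and 2.05, 2.40, 8.23 and 3.87 CPM in RPE/choroid, a difference of 7.36 ± 0.42 (adjusted p 9.8e-07). SIX3 was not called at 0.13 ± 0.15. LHX2 was higher in RPE/choroid at -0.50 ± 0.19 (adjusted p 0.043), a call made in 11 of 26 alternatives and lost with the replicate block (adjusted p 0.069). Of 17 periocular mesenchyme and vascular factors, 13 were higher in RPE/choroid with a median of -5.10, with SNAI2 at -6.82 ± 0.13 and FOXC1 at -5.59 ± 0.16. EBF1 was higher in retina at 0.49 ± 0.13 (adjusted p 0.0072), a call made in 22 of 26 alternatives and lost without replicate 4, in RM03 alone, without a covariate and in the fit of all 32 libraries.

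Genes for the synthesis, breakdown and response to retinoic acid, a signal made from vitamin A, lay on both sides. The synthesizing enzymes ALDH1A1 (-6.68 ± 0.24) and ALDH1A2 (-8.09 ± 0.30) were higher in RPE/choroid, where ALDH1A2 had 250, 251, 317 and 304 CPM against 0.665, 0.534, 1.18 and 1.98 CPM in retina. The binding protein CRABP1 was higher in retina at 6.02 ± 0.35. The degrading enzyme CYP26A1 had 12.1, 18.1, 17.7 and 16.8 CPM in retina and 43.4, 45.2, 2.84 and 10.6 CPM in RPE/choroid, so that it was not called (-0.13 ± 0.68). The difference was -1.55 in RM03 alone, which was called, and 1.34 in RM04 alone, which was not (adjusted p 0.08 by edgeR). In all, 7 of 14 genes tested were higher in RPE/choroid, 3 in retina and 4 were not called, with a median of -1.24.

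Energy metabolism genes differed in direction by list. Of 15 glycolysis genes tested, 14 were higher in retina and none in RPE/choroid, with a median of 2.42. Neuronal enolase, ENO2, had 3681, 4146, 3499 and 3445 CPM in retina and 26.8, 19.8, 129 and 45.4 CPM in RPE/choroid, a difference of 6.35 ± 0.60, and ALDOC differed by 4.54 ± 0.20. The gene that was not called was an entry matched to ENO1 only by its human ortholog. Another entry named LDHA, not the one in the list, was called higher in RPE/choroid at -1.17 ± 0.40. Its means were low, at 0.33 CPM in retina and 0.75 CPM in RPE/choroid. Of 6 carriers of lactate and glucose, 3 were higher in RPE/choroid and 2 in retina with a median of -0.42, with the monocarboxylate carrier SLC16A1 higher in RPE/choroid at -1.04 ± 0.19 and its partner BSG at -1.0 ± 0.21. Of 13 genes for fatty acid oxidation and ketone synthesis, 9 were higher in RPE/choroid and 3 in retina with a median of -0.65. ACADVL differed by -1.76 ± 0.18, while the neuronal carnitine transferase CPT1C (1.12 ± 0.19) and BDH1 (0.93 ± 0.15) were higher in retina. Of 6 creatine genes, 3 were called in each direction with a median of -0.09, and CKB, brain creatine kinase, was higher in retina at 3.34 ± 0.26.

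Genes of inherited and age-related macular disease stood in both tissues. Of 21 tested, 11 were higher in retina and 10 in RPE/choroid, with a median of 0.59. On the retina side were ABCA4 and the guanylate cyclase activator GUCA1A (6.59 ± 1.03), and on the other side BEST1, TIMP3, EFEMP1, C3 and CNGB3, with the values given above. A list of 31 tested genes that the study places by location, chosen on these samples and so not independent evidence, had 12 higher in retina, 13 higher in RPE/choroid and 6 not called, with a median of 0.09.

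The study listed ligand and receptor pairs with 1 partner in RPE/choroid and the other in retina, chosen on these samples by their change between macula and periphery. The 39 distinct pairs used here were those it placed as higher at the macula, and those it placed as lower were not analysed here. That list is not independent evidence of direction between the tissues. Both partners were higher in the tissue named for them in 6 pairs (4 to 8 in alternatives), both were higher in RPE/choroid in 19, both higher in retina in 3 and both on the opposite side in 5, and in 6 more a partner was not called or not tested. Of 31 distinct genes placed in retina, 8 were higher in retina and 18 higher in RPE/choroid, and of 28 placed in RPE/choroid, 19 were higher there and 7 higher in retina. IGF2 had 779, 1224, 1190 and 1458 CPM in RPE/choroid and 1.21 to 4.10 CPM in retina, whereas its receptor partner IGF1R differed little, with 69.7 to 81.0 CPM in retina and 60.1 to 67.5 CPM in RPE/choroid (0.29 ± 0.07, adjusted p 0.0079), a call made in 22 of 26 alternatives and lost without replicates 1, 3 or 4 and in RM03 alone. FGFR1 (-4.04 ± 0.28) and NCAM1 (1.89 ± 0.09), EPHA2 (-3.39 ± 0.13) and EFNA3 (2.31 ± 0.22), and EGFR (-1.02 ± 0.09) and EGF (3.87 ± 0.28) were pairs on the sides named. EFNB1 (-4.31 ± 0.25) with EPHA4 (2.97 ± 0.15), and CXCL12 (-5.53 ± 0.27, matched by its human ortholog) with DPP4 (2.13 ± 0.21), lay on the opposite sides.

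Whether the tissue difference is particular to the fovea was tested as a difference of differences over all 32 libraries. Of 16382 genes tested, 2494 (15.2%) had a tissue difference at the fovea that differed from that at the perimacula, 1160 (7.08%) of them toward retina and 1334 (8.14%) toward RPE/choroid at the fovea. Without replicate 1, the RM03 right eye, 1023 genes were called, and without replicate 3, the RM04 right eye, 867. Against the nasal location there were 3853 (23.5%), with 1807 of the 16382 toward retina, and 2548 without replicate 1 or 2510 without replicate 4, the RM04 left eye. Against the periphery there were 7130 (43.5%), with 3121 (19.1%) toward retina. These 3 comparisons share the foveal libraries, and the periphery was sequenced on another flow cell, so that location and flow cell cannot be told apart there. Between the fovea and the perimacula, 104 of these genes were called in opposite directions at the 2 locations.

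The tissue difference of CA12, a membrane-bound carbonic anhydrase, was -5.90 at the fovea and 1.75 at the periphery in the fit of all 32 libraries, with -2.73 in perimacular and -1.27 in nasal punches, and the fovea differed from the perimacula by -3.18 ± 0.49 (adjusted p 0.0001). Its mean in retina was 2.37 ± 0.72 CPM at the fovea and 66.5 ± 36.1 CPM at the periphery, and in RPE/choroid 143 ± 23 and 19.2 ± 7.19 CPM (SD, n = 4). Peroxidasin PXDN, the anion transporter SLC26A7 and the retinoic acid hydroxylase CYP26B1, matched by its human ortholog, were likewise further toward RPE/choroid at the fovea than at the perimacula, by -4.10 ± 0.52, -3.44 ± 0.68 and -3.33 ± 0.72. In retina CYP26B1 had 0.14 ± 0.03 CPM at the fovea and 29.5 ± 19.3 CPM at the periphery, and in RPE/choroid 15 ± 2.92 and 28.9 ± 2.70 CPM. Its call and that of SLC26A7 against the perimacula were lost without replicate 3, the RM04 right eye.

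In the other direction, ENO3, the muscle enolase, had a tissue difference of 2.28 at the fovea against -0.31 at the perimacula, 0.06 in nasal punches and -0.57 at the periphery. Its foveal mean was 11.4 ± 1.90 CPM in retina and 2.34 ± 0.83 CPM in RPE/choroid, against 2.29 ± 0.38 and 2.84 ± 0.52 CPM at the perimacula (SD, n = 4). Its difference from the perimacula was 2.59 ± 0.35 (adjusted p 2.8e-05). SEC16B, an endoplasmic reticulum exit site protein, was at 4.57 at the fovea and 2.58 at the perimacula, a call that was lost without replicate 3. ANGPTL2 was at -0.91 at the fovea, -2.87 at the perimacula, -3.61 in nasal punches and -3.46 at the periphery, and the fovea differed from the perimacula by 1.97 ± 0.36. CPZ, a carboxypeptidase, differed by 2.70 ± 0.74, a call made in 6 of 10 alternatives and lost without replicates 1, 2 or 3. The shift of PMP2 against the perimacula was 11.6 ± 1.72 and was called in 10 of 10 alternatives at 10.1 to 12.7, with 149 ± 211 CPM in perimacular RPE/choroid (SD, n = 4). The rod transducin subunit GNGT1 had a smaller tissue difference at the fovea than at the perimacula, by -3.86 ± 1.15 (adjusted p 0.024). It had 52.6 CPM in the RPE/choroid of the RM04 right eye against 1.44 to 5.57 CPM in the other 3, and it was not called without that eye, without replicate 4 or with only the 2 locations in the fit.

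**Figure D5:**
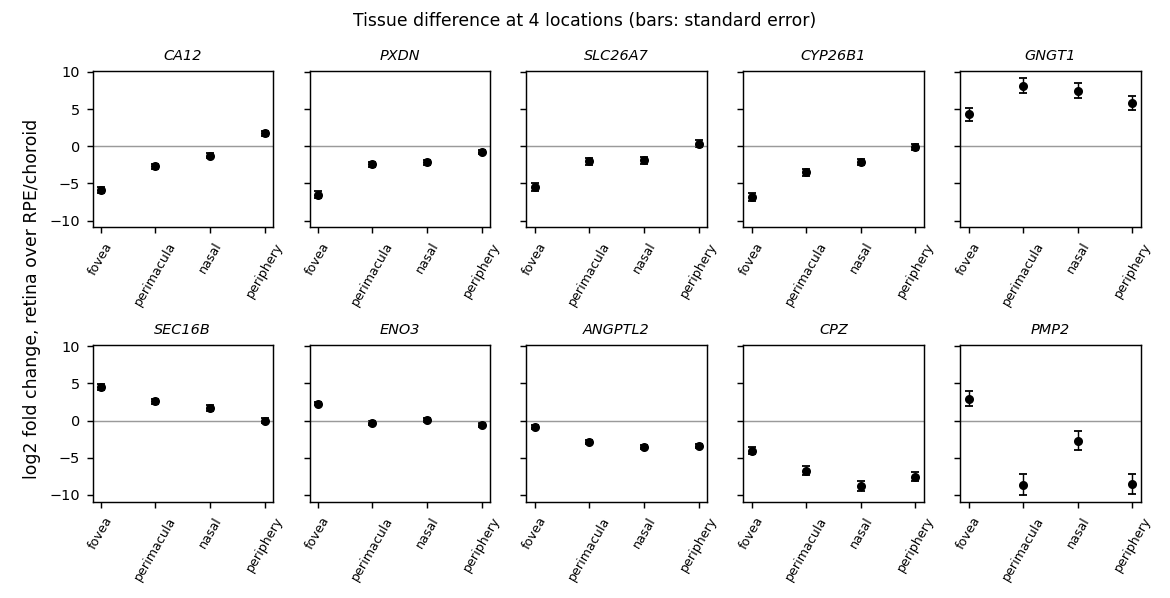
Tissue difference (y axis, log2 fold change of retina over RPE/choroid, with its standard error) at the fovea, perimacula, nasal location and periphery (x axis) for the 10 genes named by the largest difference of differences. CA12 climbs from -5.90 at the fovea to 1.75 at the periphery, and ENO3 is above 0 by more than its error at the fovea alone.

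At the level of lists, glycolysis genes were further toward retina at the fovea than at the nasal location for 8 of 15 genes, with list medians of 2.39 at the fovea and 1.53 at the nasal location, and for 6 genes without replicate 3. Of all 16382 genes, 1807 were further toward retina against the nasal location. Against the perimacula this held for 4 of the 15, and for 2 without replicate 3, beside 7.08% of all genes. Of 10 Schwann cell genes, 6 were further toward retina at the fovea than at the perimacula, and 4 without replicate 3, with medians of -2.93 and -7.04. Against the periphery it was also 6, with a median of -7.02 there, beside 19.1% of all genes. Against the nasal location 1 was further toward each tissue. Rod genes were less toward retina at the fovea than at the perimacula for 9 of 11 genes, with medians of 4.67 and 7.83, beside 8.14% of all genes. Without the RM04 right eye, whose foveal RPE/choroid had the highest rod signal, this held for 1 gene. The calls over all genes in either direction fell from 2494 to 867 in that fit. Against the nasal location 6 of the 11 were less toward retina, with a median of 7.25 there, and 1 without that eye. Against the periphery it was 3 of the 11. Among all 16382 genes, 3853 were called against the nasal location, 1807 of them further toward retina at the fovea and the rest less so. Against the periphery 7130 were called, 3121 of them further toward retina and the rest less so. Whether the rod counts exceed those of all genes there was not tested. Of the 13 cone genes, 0 were called by edgeR against the perimacula or the nasal location, with 1 and 0 at an unadjusted p under 0.05 and 0 and 0 by DESeq2. Against the periphery 2 cone genes were further toward retina at the fovea and 1 further toward RPE/choroid, and DESeq2 called 3. This stands beside 43.5% of all genes called in either direction.

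The animals were compared in the same way. The tissue difference at the fovea was not the same in RM03 and RM04 for 1234 genes (7.99% of 15435), and 1013 of these had the same sign in both animals. Without replicate 3 the count was 109, and without replicate 4 it was 421, in fits where RM04 is left with 1 eye that is assumed to vary like the others. Of the 10 genes of the RPE visual cycle 4 were called, and of 13 macrophage genes 7. In the RPE/choroid of RM04 the 10 visual cycle genes had medians of 133% and 130% of their mean over the 4 eyes against 80% and 56% in RM03. For macrophage genes the medians were 129% and 123% in RM03 against 71% and 73% in RM04. Whether the makeup of the punches or the cells themselves differed was not tested. By the size of the difference, WISP1 (-9.90, RM03 minus RM04) had 0 and 0.02 CPM in retina of RM03 and 17.7 and 20.1 CPM in that of RM04, with 8.92 to 17.1 CPM in RPE/choroid. TNFRSF10D had 0.786 and 0.854 CPM in retina of RM03 and 24.9 and 26.8 CPM in that of RM04, so that it was higher in RPE/choroid in RM03 at -4.27 and higher in retina in RM04 at 0.89. TSHR, the thyrotropin receptor, had 0.35 and 0.32 CPM in RPE/choroid of RM03 and 29 and 23 CPM in that of RM04. VIP and DLGAP1 were also among the 5 largest, but their calls were lost without replicates 1, 3 or 4, and DLGAP1, 1 of 2 entries of that symbol, was at 0 in both RPE/choroid libraries of RM03.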

How the data were processed

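RNA from retina and RPE/choroid was sequenced as paired 100 bp poly-A libraries. The authors quantified each lane against Mmul_8.0.1 using Salmon 0.13, and tximport gave the gene values. The deposited column is headed TPM but holds length-scaled estimated counts, whose totals differ between lanes. Of 19432 entries in each lane, the 10 that repeat an identifier were dropped here. The 5 lanes of each foveal library, on 2 flow cells, were summed and rounded to whole numbers. The study also aligned reads to the human genome for genes the macaque annotation lacks, and whether the deposited values include these is not given in the sources used here.

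The tissues were compared in edgeR 4.0.16 (R 4.3.3) by the quasi-likelihood test, with TMM scaling, filterByExpr (minimum count 10) and the animal as covariate. P-values were adjusted by the Benjamini-Hochberg method across the genes tested, and genes were called at an adjusted p under 0.05. The study used DESeq2, which was an alternative here (1.42.0). Differences between locations and between animals were tested as interactions. CPM are TMM-normalized. On simulated counts for the foveal comparison (15357 genes), 99% of the 200 genes changed by a log2 of 1.5 were recovered and 2.94% of calls were false. The simulation gave every gene the same dispersion and held no animal effect. It also changed a far smaller share of genes than the 76.9% called in the data, so these rates need not hold there.

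The labels give animal and eye, so that equal replicate numbers pair the samples. Deviations of the retina and RPE/choroid libraries of an eye correlated at 0.17 to 0.24 over genes, and at -0.0016 to 0.034 once the animal was removed. Libraries of a tissue differed by at least 4.50 times the variance of counting, so that none was a duplicate. Other normalizations, filters, covariates, lanes and left-out libraries were the further alternatives.

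Apart from any added after their values were seen, genes are named by a rule. It takes the 10 largest differences in each direction with a symbol, 100 CPM or more and 1 direction in 4 of 4 eyes. In each list it takes up to 4 called members by level, 3 on the opposite side and 2 not called. It also takes the 5 largest interactions in each direction against both perimacula and nasal, the 5 largest between animals, both at 10 CPM or more, and the ligand and receptor pairs. The members, the 35 lists (484 genes, 431 tested) and the tests were chosen with earlier results of these data known. Genes with no usable entry, rhodopsin and the cone opsins among them, were not analysed here. Some items are not reported here, and no sequence is shown.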

Additional observations from a re-analysis of the deposited data

Results flagged for a closer look

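Over the 4 eyes of a tissue, 11 of 348 sets of log2 CPM (list means and named genes) had 1 library further from the rest than Dixon's 95% limit allows, where chance gives about 1 in 20. That is fewer than such a rate would give, and list means share genes with the named genes, so the sets are not independent. Of the 11, 10 were in eyes of RM03, a split that was not tested. In retina of the RM03 left eye the mean of the list of both photoreceptor kinds was 8.62 against 8.46 to 8.47 in the other eyes, and that of the inner blood-retina barrier list 2.85 against 2.58 to 2.62. In the same library RCVRN was 10.2 against 9.93 to 9.98, GRIK1 8.05 against 8.24 to 8.26 and CKB 11.2 against 10.1 to 10.2. In retina of the RM03 right eye RBP3 was 11.4 against 11.9 or more, NEUROD4 7.11 against 6.97 to 6.99 and VEGFA 7.97 against 7.49 to 7.54. In RPE/choroid the melanin list was 7.18 in the RM04 left eye against 7.12 to 7.13, EDNRB 10.2 in the RM03 right eye against 10.1 in the others, and IGF1R 6.08 in the RM03 left eye against 5.91 to 5.93. The photoreceptor transcripts in the RPE/choroid of the RM04 right eye did not pass this limit.

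The tissue difference at the fovea differed from that at the perimacula for 2494 genes, from that in nasal punches for 3853 and from that at the periphery for 7130, and it differed between RM03 and RM04 for 1234. All 4 counts come from tests of the difference itself.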

How the results depend on the processing

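The 11867 genes called at the fovea became 10362 to 12445 under other settings and 10651 to 11857 with an eye or a library left out, and 10129 of them (85.4%) were called in all 12 of the latter fits. None of these calls reversed in an alternative. With the eye as a replicate block 11361 genes were called, 11314 of them among the 11867, and of the named genes the block ended the foveal calls of LHX2, KDR, VEGFA and VEGFD and the nasal interaction of GNGT1. Without TMM the median of all genes moved by 0.10 (log2). Of 139 named genes, 121 kept their direction and call in every alternative run for them. In RM04 alone 2 genes were called against their direction in all eyes, in which neither was called: TFAP2A, an amacrine cell factor, at 0.48 and TNFRSF10D at 0.89. Interaction counts moved more. Against the perimacula 2494 became 1641 (without a covariate) to 3088 (DESeq2), and 867 to 1890 with an eye left out, lowest without replicate 3. Against nasal punches 3853 became 2858 to 4737, and 2510 to 3133 with an eye left out, and against the periphery 7130 became 5899 to 7488, and 5774 to 6083. Between animals 1234 became 1202 to 1889 (DESeq2), and 109 to 1121 with an eye left out, lowest without replicate 3. The causes were not tested, beyond the smaller number of eyes. Leaving out an eye in the comparison of animals, other scalings of the other tissue's signal and all settings for the 2-fold, interval and pair counts were chosen after seeing the data. With 4 eyes of 2 animals, differences between animals and locations are known least well.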
